A study of Homo sapiens with 6 samples.

Results

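The metallothionein genes MT1E, MT1F, MT1G, MT1H, MT1M, MT1X and MT2A were examined in respiratory epithelial cells exposed to TGF-β1. The 7 members are the entries that carry these symbols in the deposited count files. Each symbol was listed once, so the members were 7 of 25737 entries. All of them were followed in every library, including MT1H, which had no counts.

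The study asked how TGF-β1, a cytokine used to induce a fibrosis-like state, changes the transcriptome of lung epithelial cells. A549, a lung adenocarcinoma line, and BEAS-2B, an immortalized bronchial epithelial line, were each left untreated or kept for 48 h with TGF-β1 at 1 or 5 ng/mL, and both are labelled as wild type. Messenger RNA was counted from its 3′ end with a QuantSeq library kit, with 1 library for each of the 6 conditions. The labels give a medium with 1% serum for the treated cells and no separate medium for the untreated ones, so if the medium differed, it and TGF-β1 cannot be told apart.

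With 1 library per condition there was no replicate check, and no test or p-value is given for any comparison between conditions. Total counts ranged from 4120624 to 7841350. Counts were brought to a common scale and are called normalized counts, and adding 1 and taking log2 gives the normalized data (ND) value. An entry was called higher or lower when its fold change (FC), on the scale of the normalized count plus 1, was at least 2 and its ND value reached 7 in at least 1 of the 2 libraries compared. Brackets after a ratio hold its 95% exact counting interval, or an approximate one where the A549 ratio is divided by the BEAS-2B ratio. Intervals cover counting error only and not the spread between cultures, which 1 library per condition cannot show. Reads were counted with no molecular identifiers and 1 molecule can give several, so intervals may be too narrow even for counting error. In RNA from whole cultures, fewer cells that express a gene and less RNA per cell cannot be told apart.

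Both lines were checked against markers of lung and other cell types. Summed epithelial markers were at 5172 CPM, a count relative to the library total, in untreated A549 and at 432 in untreated BEAS-2B, and the treated libraries had 1890 to 2076 and 201 to 243. EPCAM had no counts in BEAS-2B. Alveolar type 2 markers summed to at most 3.53 CPM and airway basal markers to at most 2.55, so the defining genes of those cell types were near 0 in both lines. Endothelial, fibroblast and blood markers summed to at most 12.3 CPM. Epithelial markers thus moved with treatment in both lines, and their part in the results was not tested. Of 6 known TGF-β1 responders, 5 passed the ND minimum in A549 at 5 ng/mL and 6 in BEAS-2B, and each of these was called higher. Among all entries tested at that dose, 16.1% were called higher in A549 and 7.33% in BEAS-2B. At 1 ng/mL, 4 of 5 responders were called higher in A549 and 6 of 6 in BEAS-2B, against 10.9% and 5.66% of all entries tested.

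Metallothioneins are small cysteine-rich proteins that bind zinc, copper and cadmium and buffer the free metal in the cell. Their genes are switched on by the zinc-sensing transcription factor MTF1, which binds metal response elements in their promoters, and several also respond to glucocorticoids and oxidative stress. MT2A and the MT1 genes are expressed in many tissues, whereas MT3 is best known from brain and MT4 from stratified epithelium.

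The members form one cluster on chromosome 16. In GRCh38 they lie between 56608199 and 56684196, a span of 76.0 kb, and 6 of the 7 are on the plus strand. MT2A (ENSG00000125148, 56608199 to 56609497) stands first and is followed by MT1E (ENSG00000169715, 56625475 to 56627112) and MT1M (ENSG00000205364, 56632233 to 56633986). Next come MT1F (ENSG00000198417, 56657694 to 56660698), MT1G on the minus strand (ENSG00000125144, 56666731 to 56668065) and MT1H (ENSG00000205358, 56669814 to 56671129). MT1X (ENSG00000187193, 56682424 to 56684196) is the last. Each main transcript has 3 exons. The counts were made on hg19, so the positions say where the genes lie and may not be the intervals that were counted.

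Promoter sequence from RefSeq (GRCh38.p14) was at hand for MT2A, MT1X and MT1H, the 3 of 7 members matched by symbol. In each window of 300 bases, from 250 before to 50 after the start site, the core of the metal response element was searched on both strands as TGCACNC or TGCGCNC. It occurred 8 times in MT2A, 8 times in MT1H and 4 times in MT1X, with no overlap between matches. Of all 35116 promoter windows of this length, 29.6% held at least 1 match, 0.601% held at least 4 and 0.0199% held at least 8. A pair of matches near the start site of each gene is printed here. It was chosen because the most abundant member, the member called higher in all 4 treated libraries, and the member without counts share it. Distances are counted from the RefSeq start sites, which are 56608584 for MT2A, 56682470 for MT1X and 56669814 for MT1H. For MT2A and MT1X these lie downstream of the gene starts given above from GENCODE, so the printed MT2A matches fall inside the longer GENCODE gene. Sequences run 5′ to 3′ on the plus strand, capitals mark the 7 motif bases, and a motif on the minus strand appears as its reverse complement.

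MT2A, 54 bases upstream, chr16:56608522-56608544: ggggctttTGCACTCgtcccggc
MT2A, 88 bases upstream, chr16:56608488-56608510: cgcggggcGTGTGCAggcagcgc
MT1X, 53 bases upstream, chr16:56682409-56682431: ggggcctcTGCGCCCggccctct
MT1X, 78 bases upstream, chr16:56682384-56682406: gcaggggcGGGTGCAaggacgag
MT1H, 53 bases upstream, chr16:56669753-56669775: agggtctcTGCACCCggctccct
MT1H, 78 bases upstream, chr16:56669728-56669750: agtgggtcGGGTGCAagggtggg

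In each printed pair the motif on the plus strand lay closer to the start site and that on the minus strand farther out. MT1X and MT1H held theirs at the same 2 distances. The order was not kept by all matches, as plus strand matches also lay 153 bases upstream in MT2A and 126 in MT1H. The printed pairs were also not the nearest in MT2A and MT1H, which each held a plus strand match 8 bases upstream. A TATAAA box was matched 29 bases before the start of MT2A and 30 bases before that of MT1X, and no such letters were found in the window of MT1H. A match describes the letters and not a site shown to be bound.

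MT2A, the main metallothionein of most human cells, dominated the family in every library. Its counts in A549 were 3664 without TGF-β1, 33593 at 1 ng/mL and 25821 at 5 ng/mL. In BEAS-2B they were 17482, 26833 and 22373. On the normalized scale this was 4245, 23080 and 23427 in A549 and 19499, 30193 and 28180 in BEAS-2B. Untreated A549 was thus the one low library, and the other 5 lay within a narrow range at the top of the expression scale. By count MT2A ranked 145 among all entries in untreated A549, then 17 and 16 in the treated libraries. In BEAS-2B it already ranked 6 without TGF-β1 and 7 at both doses.

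In A549, MT2A rose 5.44-fold at 1 ng/mL (5.25 to 5.63) and 5.52-fold at 5 ng/mL (5.33 to 5.71). The ratio of the 5 to the 1 ng/mL library was 1.02 (0.999 to 1.03), so the higher dose added nothing that the counts could resolve. In BEAS-2B the treated libraries stood 1.55-fold (1.52 to 1.58) and 1.45-fold (1.42 to 1.47) above the untreated one, under the FC limit at both doses. The A549 ratio was 3.51 times the BEAS-2B ratio at 1 ng/mL (3.38 to 3.65) and 3.82 times at 5 ng/mL (3.67 to 3.97). Before treatment BEAS-2B held 4.59 times as much MT2A as A549, whereas the A549 level was 0.764 of the BEAS-2B level at 1 ng/mL and 0.831 at 5 ng/mL.

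MT1X, a second widely expressed member, was called higher in all 4 treated libraries. Its counts were 78, 728 and 798 in A549 and 69, 256 and 331 in BEAS-2B at 0, 1 and 5 ng/mL. The untreated lines were close, at normalized counts of 90.4 and 77.0, a ratio of 1.17 (0.838 to 1.65). On these counts the lines started level, unlike for MT2A, although reads shared with MT1E or MT2A could make up the untreated BEAS-2B count.

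MT1X rose 5.54-fold (4.38 to 7.08) and 8.01-fold (6.34 to 10.2) in A549. In BEAS-2B it rose 3.74-fold (2.86 to 4.96) and 5.42-fold (4.17 to 7.13). The 5 ng/mL library exceeded the 1 ng/mL library 1.45-fold in A549 (1.31 to 1.60) and 1.45-fold in BEAS-2B (1.23 to 1.71), intervals that leave out 1 but lie under the FC limit. The A549 response was 1.48 times that of BEAS-2B at both doses, with an interval of 1.04 to 2.11 at the lower dose and 1.04 to 2.10 at the higher one. On these counts the lines differed less in their response of MT1X than of MT2A. The BEAS-2B ratios of MT1X rest on an untreated count that shared reads could make up, so this difference is uncertain.

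**Figure D1:**
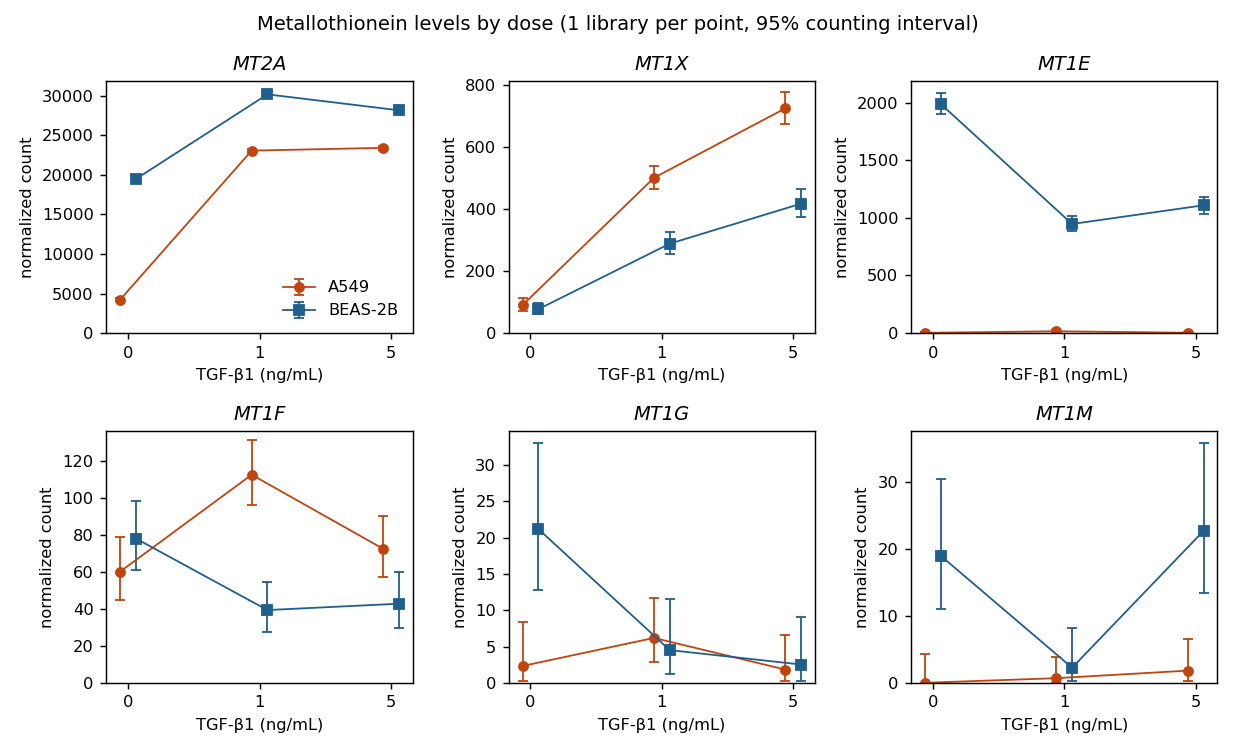
Normalized counts (vertical axes, from 0) of 6 members at 0, 1 and 5 ng/mL TGF-β1 in A549 (circles) and BEAS-2B (squares), with 1 library per point and bars for the 95% counting interval. MT2A starts low only in A549 (4245) and lies between 19499 and 30193 in the other libraries, MT1X climbs in both lines, and MT1E is present in BEAS-2B (946 to 1988) and nearly absent from A549. MT1H is not drawn because it had no counts.

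MT1E split the 2 lines. In BEAS-2B it was the second member, with counts of 1782 without TGF-β1, 841 at 1 ng/mL and 880 at 5 ng/mL. In A549 the counts were 2, 23 and 3. BEAS-2B without treatment therefore held 858 times the A549 level, with a wide interval of 237 to 7088 because the A549 value rests on 2 counts. The gap was 59.9-fold at 1 ng/mL and 407-fold at 5 ng/mL (139 to 1979), so the lines did not overlap at any dose.

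MT1E went the other way from MT1X in BEAS-2B. It fell to 0.476 of the untreated level at 1 ng/mL (0.438 to 0.517), which was called. At 5 ng/mL it was at 0.558 of that level (0.514 to 0.605), short of the limit. The call at 1 ng/mL was close to the limit, with a log2 FC of -1.07, and under upper quartile scaling it was lost. In A549 the value at 1 ng/mL was 6.82 times the untreated one (1.69 to 59.7) and at 5 ng/mL 1.17 times (0.135 to 14.1), all from counts under the ND minimum.

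MT1F, MT1G, MT1M and MT1H were under the ND minimum in every library, so none of them could be called. MT1F was detected throughout, with counts of 52, 164 and 80 in A549 and 70, 35 and 34 in BEAS-2B. In A549 its ratio to the untreated library was 1.87 at 1 ng/mL (1.36 to 2.61) and 1.20 at 5 ng/mL (0.839 to 1.74). In BEAS-2B the ratios were 0.504 (0.326 to 0.767) and 0.548 (0.353 to 0.838). MT1F thus stood above the untreated level in treated A549 and below it in treated BEAS-2B, with the A549 interval at 5 ng/mL reaching below 1.

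MT1G had 2, 9 and 2 counts in A549 and 19, 4 and 2 in BEAS-2B. Its BEAS-2B ratios of 0.212 (0.053 to 0.639) and 0.119 (0.013 to 0.493) rest on these few reads. MT1M had 0, 1 and 2 counts in A549 and 17, 2 and 18 in BEAS-2B, where the 1 ng/mL library stood apart from the other 2. MT1H had 0 counts in all 6 libraries, and a count of 0 allows up to 3 counts, or 2.06 to 3.78 normalized counts depending on the library. MT1H was thus not detected in these counts, although its promoter window held as many motif matches as that of MT2A. Of the stretches of 50 bases at its 3′ end, 66.5% lay within 3 mismatches of another metallothionein. Whether reads of MT1H were lost or counted for other members was not tested.

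**Figure D2:**
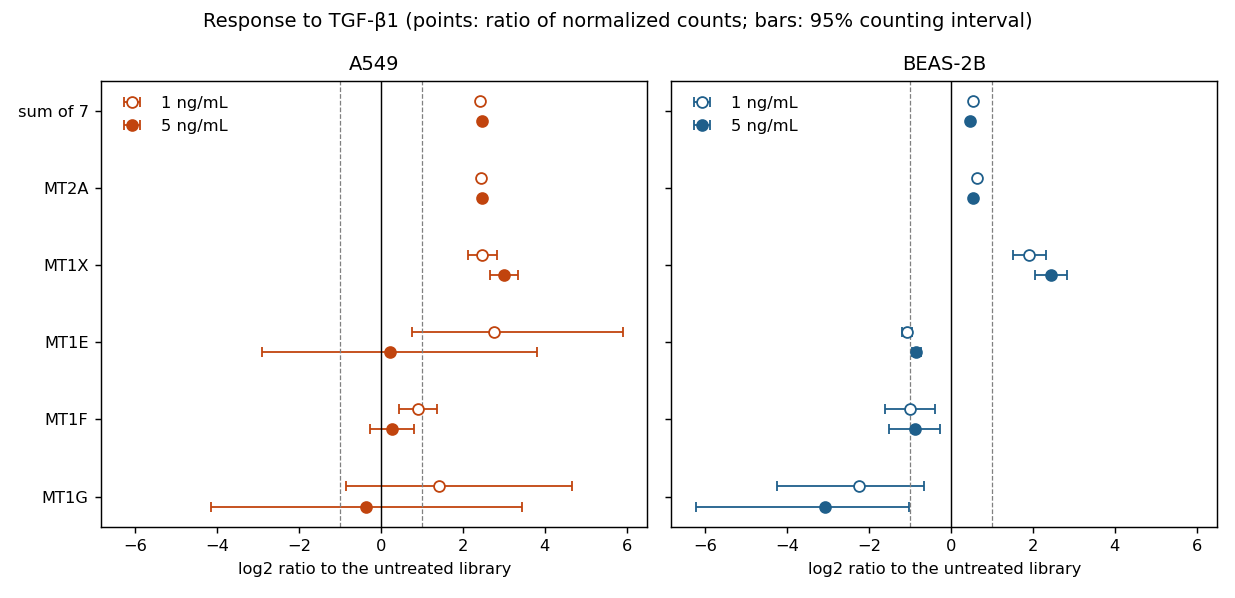
Log2 ratio of each treated library to the untreated library of its own line for the summed members and 5 single members, at 1 ng/mL (open) and 5 ng/mL (filled), with bars for the 95% counting interval and dashed lines at an FC of 2. In A549 the sum, MT2A and MT1X lie beyond the right line, and in BEAS-2B MT1X does so while MT1E lies near the left line. MT1E in A549 and MT1G in both lines rest on few counts and have wide bars. The 2 doses of a line share 1 untreated library.

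Counted against all entries tested, the calls among the members were few in number because few members were expressed. In A549 at 1 ng/mL, 2 of the 7 members passed the ND minimum and both were called higher, where 10.9% of the 7007 entries tested were called higher and 12.6% lower. At 5 ng/mL the same 2 members, MT2A and MT1X, were called higher, against 16.1% higher and 17.1% lower among 7115 entries. In BEAS-2B, 3 members passed the minimum. At 1 ng/mL MT1X was called higher and MT1E lower, where 5.66% of all entries tested were called higher and 9.13% lower. At 5 ng/mL only MT1X was called, higher, against 7.33% higher and 11.6% lower. Both doses were compared with the same untreated library of each line, so their calls are not independent.

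Between the doses no member was called. In A549, 1.61% of entries tested were higher at 5 than at 1 ng/mL and 1.79% lower, and in BEAS-2B 0.492% and 0.412%. Between the untreated lines MT2A and MT1E passed the minimum and both were lower in A549, where 18.1% of entries tested were higher in A549 and 18.9% lower. Among single entries, 70 of 7007 had an FC in A549 at 1 ng/mL at least as high as MT2A, and 146 of 7115 did so at 5 ng/mL. For MT1X at 5 ng/mL these numbers were 81 of 7115 in A549 and 78 of 6735 in BEAS-2B. The median log2 FC of all entries tested was 0.09 and 0.11 in A549 and 0.01 and 0.03 in BEAS-2B, at 1 and 5 ng/mL.

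Summed over the 7 members, metallothionein counts were 3798, 34518 and 26706 in A549 and 19439, 27971 and 23638 in BEAS-2B. The sum was 5.39-fold (5.21 to 5.57) and 5.51-fold (5.32 to 5.70) above the untreated level in A549. In BEAS-2B it was 1.45-fold (1.42 to 1.48) and 1.37-fold (1.35 to 1.40) above it. Untreated BEAS-2B held 4.93 times the A549 sum (4.76 to 5.10). That gap narrowed to 1.33-fold at 1 ng/mL (1.31 to 1.35) and 1.23-fold at 5 ng/mL (1.21 to 1.25).

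The sum reflects MT2A, and without it the lines parted. The other 6 members together had 134, 925 and 885 counts in A549 and 1957, 1138 and 1265 in BEAS-2B. Their ratio to the untreated library was 4.09 and 5.17 in A549 and 0.587 and 0.730 in BEAS-2B, at 1 and 5 ng/mL. MT2A took 96.5%, 97.3% and 96.7% of all member counts in A549 and 89.9%, 95.9% and 94.6% in BEAS-2B. As counts come from 3′ ends, they were not divided by transcript length. The share of MT1E in BEAS-2B was 9.17% without TGF-β1 and 3.01% and 3.72% with it. Over the same libraries the share of MT1X was 0.355%, 0.915% and 1.40%.

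**Figure D3:**
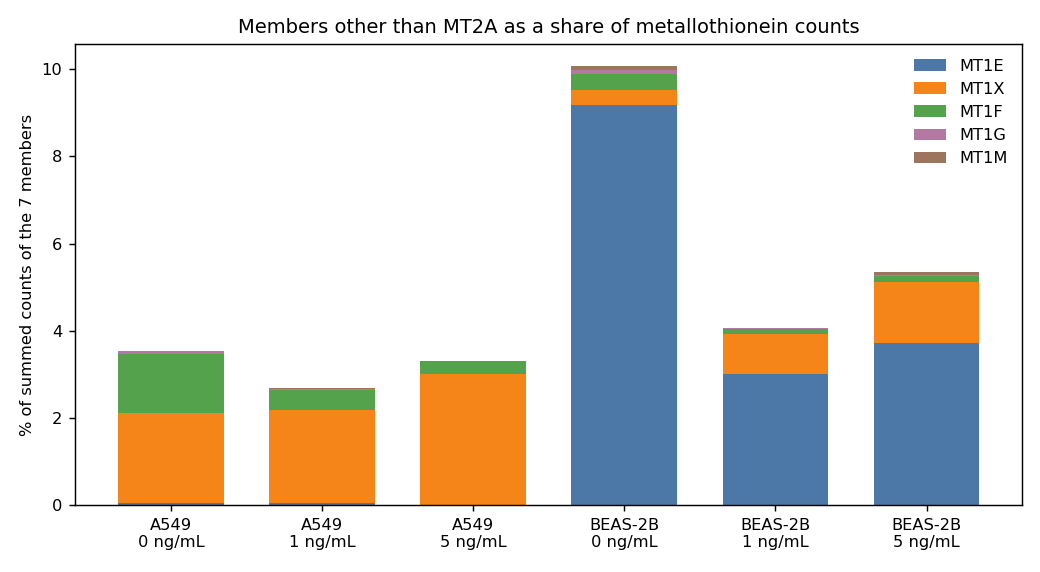
Percent of the summed counts of the 7 members held by each member other than MT2A (stacked bars, 1 library each). MT1E makes up most of the BEAS-2B bars (9.17%, 3.01% and 3.72%), and MT1X makes up most of the A549 bars (2.05%, 2.11% and 2.99%).

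Within a library, ratios between members do not depend on the scaling. MT2A exceeded MT1X 47.0-fold, 46.1-fold and 32.4-fold in A549 at 0, 1 and 5 ng/mL, and 253-fold, 105-fold and 67.6-fold in BEAS-2B. MT1E exceeded MT1X 25.8-fold in untreated BEAS-2B but 3.29-fold and 2.66-fold after TGF-β1. The order of the members was thus MT2A, MT1X, MT1F in A549 and MT2A, MT1E, MT1X in treated BEAS-2B. In untreated BEAS-2B the third place was shared, since MT1F and MT1X had 70 and 69 counts.

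The members are near-identical copies in part, so reads can be split between them. The last 300 bases of each transcript hold 251 stretches of 50 bases. These were searched in the transcripts of the other MT1, MT2A, MT3 and MT4 symbols. Exact matches were found for 6.37% in MT2A and 25.5% in MT1X, 12.0% in MT1E, 9.16% in MT1F, 19.1% in MT1M, 28.7% in MT1G and 28.3% in MT1H. MT2P1, which shares a stretch with MT2A and MT1E, and AC026461.1, which shares one with MT1X, were outside this search. The shares may therefore be too low. Allowing up to 3 mismatches, the share was 44.2% in MT2A, 43.0% in MT1X, 74.1% in MT1E and 34.7% in MT1F. It was 77.3% in MT1M, 59.0% in MT1G and 66.5% in MT1H. How reads with several matches were treated is not given in the sources used here. MT1X also overlaps AC026461.1 on the same strand, and their reads cannot be told apart.

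The libraries bound how many reads could pass from MT2A to other members at a fixed share. MT1E had 3 counts beside 25821 of MT2A in A549 at 5 ng/mL, or 0.0116%, with an upper limit of 0.0340%. At that limit, MT2A would give 5.94 of the 1782 MT1E counts in untreated BEAS-2B. MT1X was lowest relative to MT2A in untreated BEAS-2B, at 0.395% with an upper limit of 0.500%. At that limit, MT2A would give 168 of the 728 MT1X counts in A549 at 1 ng/mL and 129 of the 798 at 5 ng/mL. In BEAS-2B it would give 134 of the 256 MT1X counts at 1 ng/mL and 112 of the 331 at 5 ng/mL. For MT1F the lowest share was 0.130%, with an upper limit of 0.181%, which would give 61.0 of its 164 counts in A549 at 1 ng/mL. In treated BEAS-2B that limit, at 48.7 and 40.6, was above the 35 and 34 counts of MT1F. MT1E could likewise supply MT1F in BEAS-2B, since its lowest share of 3.86% would give 68.9 of 70, 32.5 of 35 and 34 of 34 counts. The MT1F ratios in BEAS-2B therefore cannot be told apart from those of MT1E. MT1X could supply MT1F in A549, since its lowest share of 10.0% would give 7.82 of 52, 73.0 of 164 and 80 of 80 counts. MT1E could also supply MT1X in BEAS-2B, where its lowest share of 3.87% would give 69 of 69, 32.6 of 256 and 34.1 of 331. By construction, a lowest share gives all counts of the library that set it. The upper limits from MT2A exceed those counts, with 8.77 against 3 for MT1E and 87.4 against 69 for MT1X. Whether the share was fixed was not tested.

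In all, 9 further metallothionein symbols were listed. MT1A had 27, 90 and 46 counts in A549 and 6, 8 and 20 in BEAS-2B. MT1L, annotated as a pseudogene or as a variable gene, had 0, 1 and 0 counts in A549 and 77, 132 and 89 in BEAS-2B, and like MT1E it was seen almost only in BEAS-2B. MT3 had 0, 18 and 20 counts in A549 and 0 in all BEAS-2B libraries. On the normalized scale the treated A549 values were 3.56 and 5.22 times the untreated floor of 3 counts. These ratios leave out the counting error of the 18 and 20 counts. None of these entries was called in a treated library, and MT1L was the one that passed the ND minimum, in BEAS-2B at 1 ng/mL with a ratio of 1.73 (1.30 to 2.32). MT1DP, MT1HL1 and MT1JP had at most 6 counts in any library, and MT1B, MT1IP and MT4 had none.

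The zinc and copper genes that work beside the metallothioneins were called in both directions. MTF1, the metal sensor, had counts of 108, 220 and 135 in A549 and 160, 144 and 139 in BEAS-2B, and was not called in any comparison with the untreated library. SLC30A1, the plasma membrane zinc exporter that is another MTF1 target, had 23, 4 and 4 counts in A549 and 2, 5 and 8 in BEAS-2B, under the ND minimum. Its A549 ratios of 0.103 (0.026 to 0.302) and 0.136 (0.034 to 0.399) were on the opposite side of 1 from those of MT2A and MT1X. In BEAS-2B its normalized counts of 2.23, 5.63 and 10.1 were on the same side, from at most 8 counts.

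Of the 10 zinc exporters, 2 passed the ND minimum in A549 at 5 ng/mL and neither was called. In BEAS-2B 3 passed and 1 was called, SLC30A7, which loads zinc into the secretory pathway and rose 2.17-fold (1.63 to 2.90). Their median log2 FC was 0.38 in A549 and 0.29 in BEAS-2B. Of the 14 zinc importers, 11 passed in each line at 5 ng/mL. In A549, 2 were called higher and 1 lower, with a median log2 FC of -0.02. In BEAS-2B, 3 were called higher and 2 lower, with a median of 0.37. Among all entries tested at this dose, 16.1% were higher and 17.1% lower in A549, and 7.33% and 11.6% in BEAS-2B. Nothing particular to these short lists is read from their counts.

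SLC39A10, an importer repressed by MTF1 when zinc is high, had counts of 395, 1547 and 1048 in A549 and 76, 135 and 179 in BEAS-2B. It rose 2.32-fold and 2.08-fold in A549 and 2.66-fold in BEAS-2B at 5 ng/mL, while its BEAS-2B ratio at 1 ng/mL was 1.79 (1.34 to 2.41). SLC39A3 was the other importer called higher in A549, at 2.08-fold (1.53 to 2.86). SLC39A14, which carries zinc and iron, fell there to 0.286 of the untreated level (0.225 to 0.361). In BEAS-2B at 5 ng/mL SLC39A5 and SLC39A7 rose 2.15-fold and 2.10-fold, and SLC39A4 and SLC39A9 fell to 0.479 and 0.475. SLC39A8 was under the minimum with 93, 19 and 25 counts in A549 and 50, 1 and 1 in BEAS-2B.

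Of the 14 copper genes, 9 passed in A549 at 5 ng/mL, with 1 called higher and 2 lower and a median log2 FC of 0.13. In BEAS-2B 7 passed and 1 was called lower, with a median of 0.07. Among all entries tested at this dose, 16.1% were higher and 17.1% lower in A549, and 7.33% and 11.6% in BEAS-2B. Nothing particular to the copper list is read from these counts. ATOX1, the copper chaperone of the secretory pathway, had counts of 267, 1825 and 1855 in A549 and 575, 857 and 764 in BEAS-2B. It rose 4.05-fold (3.56 to 4.63) and 5.44-fold (4.78 to 6.21) in A549, and its log2 FC in BEAS-2B was 0.59 at 1 ng/mL and 0.58 at 5 ng/mL. Its values thus lay close to those of MT2A in both lines at 5 ng/mL.

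COX17, which delivers copper to cytochrome c oxidase, fell in both lines. Its counts were 1337, 512 and 202 in A549 and 666, 158 and 87 in BEAS-2B, and at 5 ng/mL it was at 0.118 (0.102 to 0.137) and 0.148 (0.117 to 0.185) of the untreated level. CP, the copper-carrying ferroxidase ceruloplasmin, fell in A549 to 0.148 at 5 ng/mL (0.122 to 0.178). The single copper gene called higher in BEAS-2B at 1 ng/mL was SCO1, at 2.44-fold (1.84 to 3.25).

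**Figure D4:**
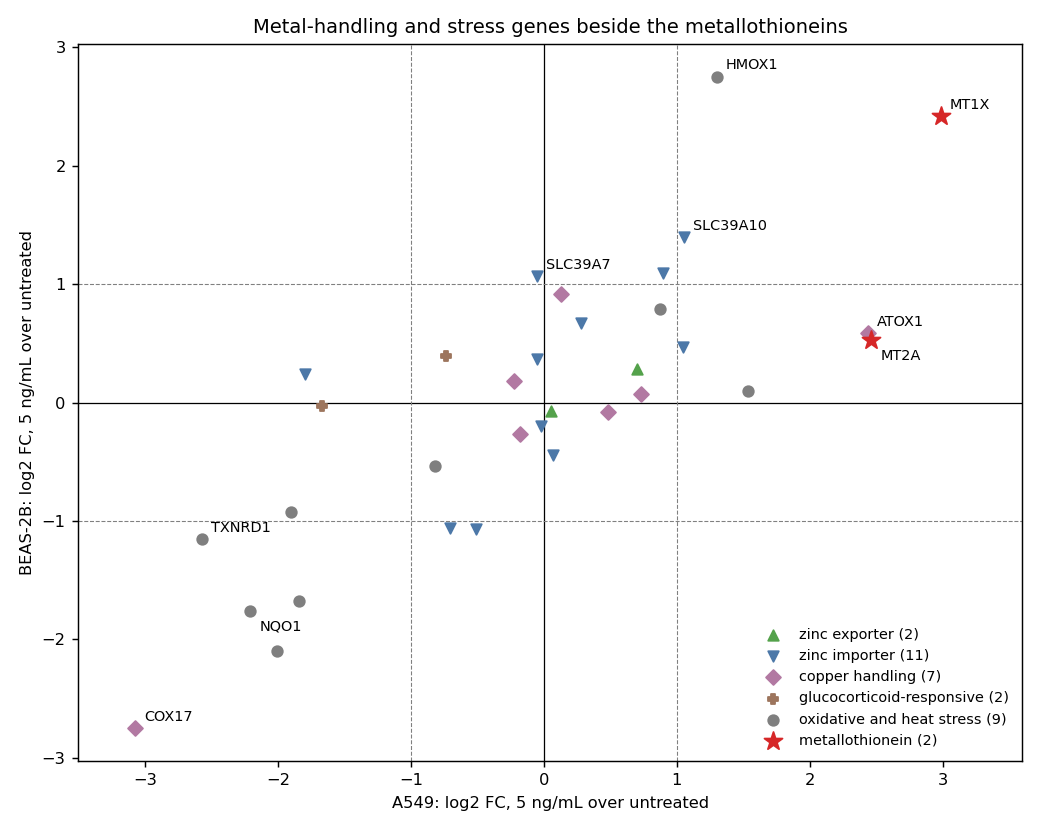
Log2 FC at 5 ng/mL over the untreated library in A549 (horizontal) and BEAS-2B (vertical) for listed genes that passed the ND minimum in both lines, with symbols by gene list, members as stars, and dashed lines at an FC of 2. ATOX1 and MT2A lie side by side at the right, MT1X and HMOX1 lie toward the upper right, and COX17, NQO1 and TXNRD1 lie at the lower left.

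Genes of the other inputs that metallothioneins are known to respond to are given for comparison. Of 8 glucocorticoid-responsive genes, 3 passed in A549 at 5 ng/mL with 0 called higher and 1 lower, and 4 passed in BEAS-2B with 0 higher and 1 lower. FKBP5, a common reporter of glucocorticoid receptor activity, had 103, 49 and 40 counts in A549 and fell in BEAS-2B to 0.490 (0.374 to 0.638) and 0.408 (0.302 to 0.546). Other listed genes stood higher in both treated BEAS-2B libraries. Counts there were 135, 225 and 157 for TSC22D3, 173, 189 and 302 for KLF9, and 7, 84 and 71 for SGK1. PER1, with 56, 38 and 37, and DUSP1, with 48, 17 and 25, went down like FKBP5. NR3C1 had normalized counts of 1033, 1111 and 1015 in BEAS-2B. In A549 it had 680, 328 and 213, and it was the gene of this list called lower there at 5 ng/mL. ZBTB16 had no counts. SGK1, PER1 and DUSP1 were under the ND minimum in BEAS-2B. The median log2 FC of the list at 5 ng/mL was -0.73 in A549 and 0.18 in BEAS-2B. Over all entries tested at that dose, 16.1% were higher and 17.1% lower in A549, and 7.33% and 11.6% in BEAS-2B. Nothing particular to this short list is read from its calls.

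Of the 10 oxidative and heat stress genes, 2 were called higher and 6 lower in A549 at 5 ng/mL, with a median log2 FC of -1.61. In BEAS-2B, 9 passed, with 1 called higher and 4 lower and a median of -0.92. The shares over all entries tested were 16.1% higher and 17.1% lower in A549, and 7.33% and 11.6% in BEAS-2B. HSPA1A and HSPA1B, both called lower in both lines, were counted as separate genes. HMOX1, heme oxygenase 1, rose 2.47-fold in A549 at 5 ng/mL (2.25 to 2.71) and 6.83-fold in BEAS-2B (5.21 to 9.09). TXNRD1 and NQO1, targets of the oxidative stress factor NRF2, fell in both lines, to 0.168 and 0.216 in A549 and 0.448 and 0.293 in BEAS-2B. HMOX1, also a target of that factor, moved in the opposite direction to these 2 genes. HSPA1A, a heat shock chaperone summed over its 5 listed entries, fell to 0.249 in A549 and 0.233 in BEAS-2B. Its co-chaperone DNAJB1 rose 2.90-fold in A549 and was at 1.07 (0.984 to 1.16) in BEAS-2B. HSPH1, also listed, went from 1374 to 2524 normalized counts in A549 at 5 ng/mL and from 880 to 1527 in BEAS-2B, under the FC limit.

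Among 8155 entries that reached the ND minimum in some library, the 5 whose log2 levels followed the summed members most closely over the 6 libraries were AGRN (Pearson r 0.998), HIVEP3 (0.997), SPSB3 (0.996), SOX15 (0.996) and GPR62 (0.995). This is a description over 6 libraries of 2 cell lines, and among them untreated A549 had the lowest sum. All entries of a library share its depth and scaling. AGRN counts were 496, 1647 and 1213 in A549 and 931, 1111 and 973 in BEAS-2B. Those of HIVEP3 were 12, 145 and 104 in A549 and 77, 111 and 110 in BEAS-2B.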

How the data were processed

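The values that the authors deposited were raw counts of reads for each gene symbol, from QuantSeq 3′ libraries of total RNA. Per the labels, processing used Bowtie2, bedtools and hg19, and further settings are not given in the sources used here. All 6 libraries were used and grouped by their labels. Counts were scaled with TMM factors of edgeR 4.0.16 (R 4.3.3) over all entries, and a pseudocount of 1 was added for the log2 FC. The limits were an FC of 2 and an ND value of 7. Intervals for the ratio of a pair of libraries were exact 95% binomial (Clopper-Pearson) intervals. Those for the A549 ratio divided by the BEAS-2B ratio were approximate 95% intervals from the Poisson variance of the log counts. The approximation is rough for members with few counts, such as MT1E. No test was run with 1 library per condition. Entries of 1 symbol outside the members were summed. Positions and 3′ ends came from GENCODE (GRCh38), promoters from RefSeq.

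The genes named were the 7 members, the listed genes and the 5 entries closest to the summed members. Members and lists were chosen with earlier results of these data known. The steps were run on simulated counts as a check of the code, and 200 of 200 changed genes were recovered in each comparison. Recovery of members with few counts or close to the FC limit was not tested, nor was the spread between cultures. The alternatives were DESeq2 1.42.0 size factors, total counts, upper quartile factors, TMM within a line or without metallothioneins, a filter at 10 counts, pseudocounts of 0.1 and 5, thinned libraries, other ND minimums, and FC limits of 1.5 and 3. Intervals were computed with scipy 1.17.1 in Python 3.11.15, and figures were drawn with matplotlib 3.10.9.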

Additional observations from a re-analysis of the deposited data

Results flagged for a closer look

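Of 26 genes examined, namely the members with counts in every library and the listed genes at or above the ND minimum in every library, 7 lay above the untreated library at both doses in one line and below it at both doses in the other. Of 4198 entries at or above the ND minimum in every library, 18.2% showed such opposite directions, against 5 of the 21 listed genes. The differences were not tested, with 1 library per condition, and several are small. At 5 ng/mL the A549 ratio divided by the BEAS-2B ratio was 2.11 for MT1E (counting interval 0.351 to 12.6) and 2.20 for MT1F (1.28 to 3.76), both with ratios above 1 in A549 and below 1 in BEAS-2B. In A549 both were under the ND minimum, and their ratios at 5 ng/mL were 1.17 (0.135 to 14.1) and 1.20 (0.839 to 1.74). The same order was seen for the zinc transporter SLC39A13, at 1.42. Ratios below 1 in A549 and above 1 in BEAS-2B were seen for the zinc transporters SLC39A6, at 0.747, and SLC39A7, at 0.460. They were also seen for the copper importer SLC31A1, at 0.752, and for the glucocorticoid-responsive gene TSC22D3, at 0.456.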

How the results depend on the processing

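No paired analysis was possible because each condition had 1 library, and for the same reason no replicate could be left out. Members with counts kept the sign of their log2 FC under every alternative that gave a value, except MT2A (-0.0176 to 0.0621) and MT1M (-1.03 to 1.28) between the doses in A549. For MT1M in A549 at 5 ng/mL the thinned libraries gave no value, since both had 0 counts. The largest log2 changes of the sum came with total counts, which shifted the median of all genes by -0.17 and -0.21 in A549 and by -0.13 at both doses in BEAS-2B. The summed log2 ratio was then 2.26 in A549 at both doses and 0.41 and 0.33 in BEAS-2B at 1 and 5 ng/mL, with -0.0082 between the A549 doses. Upper quartile factors gave 0.61 and 0.52 in BEAS-2B and 0.0711 between the A549 doses, and DESeq2 size factors gave 0.0715 there. The number of members called was 1 in BEAS-2B at 1 ng/mL under upper quartile factors and under an FC limit of 3, and 3 and 2 in BEAS-2B at 1 and 5 ng/mL under an FC limit of 1.5, which adds MT2A at 1 ng/mL and MT1E at 5 ng/mL. With the ND minimum required in both libraries it was 1 in A549 at each dose, 1 and 0 in BEAS-2B at 1 and 5 ng/mL, and 1 between the untreated lines. With no minimum it was 4 in A549 and 4 in BEAS-2B at 1 ng/mL, 3 in A549 and 2 in BEAS-2B at 5 ng/mL, 2 between the A549 doses, 1 between the BEAS-2B doses and 4 between the untreated lines. These counts follow from the number of members that each minimum admits. The few counts of MT1G and MT1M make their intervals wide, and MT1H is known only up to the limit that 0 counts allow.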
